A study of Mus musculus with 6 samples.

Results

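AP-1 and immediate early genes were followed in mouse bone marrow-derived macrophages. The members are the 10 genes Fos, Fosb, Fosl2, Jun, Junb, Jund, Egr1, Egr2, Ier2 and Ier5, taken by symbol from a table of 55401 genes. Each symbol matched 1 row, and all 10 passed the filter on low counts that left 16256 genes for testing. Poly(A) RNA was sequenced in 6 libraries, 3 wild type (WT) and 3 with the genotype label Mettl3-/- (KO). Marrow of C57BL/6 leg bones was used, and the cells of both groups were grown for 7 days in medium with 10% serum and 40 ng/mL M-CSF, the growth factor that drives marrow cells to become macrophages. The labels speak of a later treatment without naming it. They give no age, sex, Cre driver or deleted exon, and do not say that replicates came from separate mice or cultures. The p-values therefore measure only the spread between these libraries, which may be technical.

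Mettl3 is the gene of the m6A writer, the methyltransferase that puts N6-methyladenosine (m6A) on messenger RNA. Its level over the whole gene cannot decide whether the labels hold, because no deleted exon is named that could be read on its own. The WT libraries held 2.62, 2.91 and 2.26 FPKM of Mettl3, and those labelled KO held 2.5, 2.56 and 2.93. The log2 fold change was 0.02 (SE 0.11), with an edgeR adjusted p of 0.93. FPKM scales mapped fragments for transcript length and library size, so it can be compared between genes. Mettl3 showed no fall at the level of the gene, which does not test a deletion. The second group is therefore called the libraries labelled KO throughout. Totals ran from 67280390 to 77997742 estimated counts per library. All 8 macrophage markers were detected, with 3 called higher and 2 lower, beside 12.7% called over all tested genes. Their summed level was 16500 to 16800 FPKM in WT and 8520 to 8620 in labelled KO. Most of this sum was Lyz2, which fell from a mean of 14200 FPKM to 6010, while Csf1r rose from 569 to 687 and Fcgr1 from 172 to 236. Summed markers of other cells were low beside these. Neutrophil markers summed to 51.2 to 58 FPKM in WT and 44.6 to 54.4 in labelled KO, fibroblast and stroma markers to 7.01 to 7.53 and 7.13 to 8.43, and B cell markers to 0.049 to 0.124 and 0.0623 to 0.242. T and NK cell markers (6.53 to 6.9 against 7.98 to 8.28 FPKM) and endothelial markers (7.48 to 7.88 against 6.32 to 7.11) did not overlap between the groups. Of all tested genes, 33.8% did not overlap either. Of the 6 T and NK cell markers 0 were called, and of the 4 endothelial markers 1 was called higher and 1 lower. None of the listed markers was at a count of 0 in all 6 libraries, and the part of these cells in the results below was not tested.

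AP-1 is a family of transcription factors built as dimers. Jun proteins (Jun, Junb, Jund) pair with each other or with Fos proteins (Fos, Fosb, Fosl2), while Fos proteins need a Jun partner to bind DNA. Many of these genes, with the zinc finger genes Egr1 and Egr2 and the small regulators Ier2 and Ier5, are immediate early genes: serum, growth factors, stress and microbial products switch them on within minutes through existing factors, with no new protein needed. Their messages are short-lived, often through AU-rich elements in the 3' untranslated region. In macrophages they act downstream of M-CSF and Toll-like receptors.

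Of the 10 genes, 2 (Fosl2 and Fos) were higher in labelled KO, 2 (Ier5 and Jun) were lower, and 6 were not called at an adjusted p under 0.05. Fosl2 rose by 0.57 on the log2 scale and Fos by 0.26, while Ier5 fell by 0.24 and Jun by 0.14. Over all 16256 tested genes, 12.7% were called in either direction, 7.01% higher and 5.67% lower. With 1 library left out, the share called was 7.78%, 7.41% or 7.78% (without WT replicate 1, 2 or 3) and 7.47%, 7.97% or 7.6% (without KO replicate 1, 2 or 3). Among the 7607 tested genes with a mean count of at least 1000, which is the range of 7 of the members and of all 4 called ones, 22.2% were called. The median log2 fold change of the 10 genes was 0.10, against -0.01 over all tested genes, and the median absolute change was 0.25 against 0.18. The genes did not move in 1 direction.

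Sequences at the Fos and Jun genes are shown first, since these partners changed in opposite directions. Fos lies on chromosome 12 from 85473890 to 85477273 on the plus strand of mm10, and Jun spans 95049034 to 95052222 of chromosome 4 (minus strand). The 250 bases before each RefSeq start site (build GRCm38.p6) are given 5′ to 3′ on the gene's strand, with matches to the motifs searched in capitals.
Fos, chr12:85473640-85473889, plus strand: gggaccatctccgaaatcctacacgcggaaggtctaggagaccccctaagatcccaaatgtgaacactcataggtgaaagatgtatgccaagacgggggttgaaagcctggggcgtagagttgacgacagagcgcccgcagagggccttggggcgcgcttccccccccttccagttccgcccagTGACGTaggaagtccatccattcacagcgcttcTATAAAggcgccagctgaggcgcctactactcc
Jun, chr4:95052223-95052472, minus strand: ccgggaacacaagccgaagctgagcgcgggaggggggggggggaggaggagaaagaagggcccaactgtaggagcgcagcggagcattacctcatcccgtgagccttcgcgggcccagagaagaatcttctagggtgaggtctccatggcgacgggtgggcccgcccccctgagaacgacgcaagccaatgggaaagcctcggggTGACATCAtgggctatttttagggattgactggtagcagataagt
The Fos window held TGACGT, the core of the site read by CREB and ATF factors, at 66 to 61 bases before the start, and a TATAAA box at 33 to 28 bases. The Jun window held a match to TGACNTCA, the longer AP-1 and CREB site, at 45 to 38 bases. Both strands were searched for these motifs, for the AP-1 site TGANTCA, for the EGR site GCGNGGGCG and for the CArG box, which serum response factor binds. The TGACGT and TGACNTCA patterns can overlap, sharing their first letters. Of all 32851 promoter windows of this length, 6.47% held TGACGT, 7.49% TGACNTCA, 6.75% TGANTCA, 4.7% GCGNGGGCG, 1.47% a CArG box and 12.4% TATAAA. Promoters were listed for 8 of the 10 genes (not Egr1 or Ier2). The windows of Fosb and Fosl2 held GCGNGGGCG, and all 250 bases of the Fosl2 window are exonic in GENCODE M21. Of the 5 listed Egr2 windows, which overlap in part, 4 held a CArG box and 3 held TGACGT. The windows of Junb, Jund and Ier5 held none of the 6 motifs. The Jund window ends at 70697738, well before the start of the measured Jund gene at 70698949. The bases just before that gene start were therefore not searched. These matches describe letters in a window and do not show binding. Bases outside the 250 were not searched, so a motif not found here, such as a CArG box for Fos, may lie beyond the window.

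Because the labels concern the m6A writer, the messages were also read for GGACT, the sequence the writer most often modifies. In the longest coding transcripts of GENCODE M21, the GGACT nearest the stop codon of the 4 called genes is shown in capitals with 10 bases on each side.
Fosl2: ccacccggtgGGACTtagtggtgag
Fos: tgggcctcaaGGACTtgcaagcatc
Jun: tacacaagatGGACTgggttgcgac
Ier5: tagcttctcgGGACTcctacggaaa
The central base of the motif lies 137, 156 and 128 bases after the stop codon in Fosl2, Fos and Jun, and 147 bases before its end in Ier5. GGACT occurred 1.22 times per kilobase in Fosl2, 1.9 in Fos, 2.2 in Jun and 1.53 in Ier5, and from 0.675 (Egr2) to 3.29 (Ier2) over the 10 genes, where the median of 21877 coding genes was 1.02. All 10 genes carried it, called or not, so its presence cannot set rising genes apart from falling ones. No m6A was measured here.

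AU-rich pentamers (ATTTA in the DNA alphabet) shorten the life of many immediate early messages. The stretch of the 3' untranslated region with the most ATTTA within 30 bases is shown for the 3 called AP-1 genes, with each ATTTA in capitals.
Fos: tgtgttttcaATTTATTTAttaagatgga
Fosl2: attgacATTTAttttattATTTAttttaa
Jun: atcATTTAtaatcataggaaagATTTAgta
Fos carried 4 ATTTA in 815 bases of 3' untranslated region, 4.91 per kilobase, Jun 4 in 1233 bases (3.24) and Fosl2 8 in 4653 bases (1.72). The median over 19112 coding genes with a 3' untranslated region of at least 100 bases was 1.31 per kilobase. Over the 10 genes the density ran from 0 (Ier2) to 4.91 (Fos), with 0.933 in Ier5, 0.466 in the uncalled Fosb and 4.12 in the uncalled Junb. A relation of density to direction was not tested.

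Levels in WT spanned about 3 orders of magnitude. On the FPKM scale Junb was highest (62 ± 2.44, SD, n = 3), followed by Jun (48.3 ± 0.643), Jund (29.1 ± 2.54), Ier5 (19.8 ± 0.166), Fos (19.5 ± 0.556), Ier2 (12.3 ± 0.766) and Fosl2 (5.31 ± 0.167). Egr1 (1.71 ± 0.142), Egr2 (0.258 ± 0.0724) and Fosb (0.0615 ± 0.0211) were far lower. Junb, Jun and Jund each stood above at least 90.6% of tested genes in WT, Fosl2 above 62.8%, Egr1 above 41.4% and Fosb above 5%. Of the 9 pairs of neighbours in this order, only Ier5 and Fos had overlapping WT libraries. In the libraries labelled KO that pair changed places, with Fos (22.7 to 24.7 FPKM) above Ier5 (16.5 to 17.5 FPKM) in every library, while the other neighbours kept their order without overlap.

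**Figure D1:**
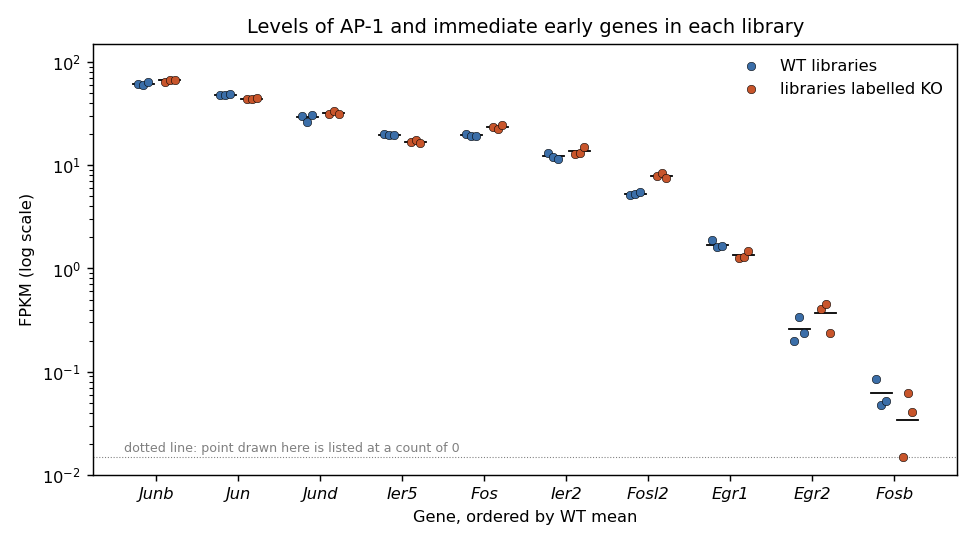
FPKM of each gene (log axis) in the 3 WT libraries and the 3 libraries labelled KO, with bars at the group means. The 3 Jun genes sit at the top and Egr2 and Fosb at the bottom, and 1 Fosb point is a library listed at a count of 0, drawn at the dotted line.

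Fosl2, which encodes the Fos-related protein Fra-2 and lies on chromosome 5 from 32135801 to 32157842 on the plus strand, changed most among the called genes. It measured 5.18, 5.25 and 5.5 FPKM in the WT libraries, against 7.86, 8.43 and 7.6 in those labelled KO. Estimated counts lay between 3800 and 6450. Every library labelled KO was above every WT library and 43% to 59% above the WT mean. The ratio was 1.48 with 95% limits of 1.36 and 1.61 (log2 fold change 0.57, SE 0.05, edgeR adjusted p = 0.00111). An exact two-sided permutation test gave p = 0.1, the smallest that 3 libraries against 3 allow. The Fosl2 call held in each of 14 alternative fits.

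Fos, the founding immediate early gene of the family, rose less. It measured 20.2, 19.2 and 19.2 FPKM in the WT libraries, against 23.4, 22.7 and 24.7 in those labelled KO. The groups did not overlap, and the lowest library labelled KO stood 16% above the WT mean. The ratio was 1.2 with 95% limits of 1.1 and 1.29 (log2 fold change 0.26, SE 0.05, edgeR adjusted p = 0.017, exact permutation p = 0.1). Leaving out WT replicate 2, WT replicate 3, KO replicate 1 or KO replicate 3 ended the Fos call (edgeR adjusted p between 0.0565 and 0.0677), with log2 fold changes of 0.22 to 0.29 over all 6 such fits.

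Fosb, the third Fos gene and a strongly stimulus-dependent one, was close to the limit of detection. Estimated counts were 42, 24 and 26 in WT and 0, 30 and 24 in labelled KO, and a count of 0 allows up to 3 counts (counting error only). The groups overlapped, and the 95% limits of the Fosb ratio, 0.0949 and 3.12, include both directions (edgeR adjusted p = 0.664). Low estimated counts are coarse, since 36.9% to 40.4% of those from 1 to 20 were multiples of 4. Of whole numbers, 1 in 4 is such a multiple. The Fosb counts above 0 (24 to 42) lie beyond that range, and their coarseness was not tested. The relative Fosl1, which encodes Fra-1, had 25 counts over all 6 libraries and was not tested.

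Jun, the partner in the classical Fos and Jun dimer, fell slightly. It measured 48.2, 47.6 and 48.9 FPKM in the WT libraries, against 43.7, 44 and 44.9 in those labelled KO. Estimated counts lay between 10788 and 12573. Each library labelled KO lay below each WT library and 7% to 9% below the WT mean. The ratio was 0.906 with 95% limits of 0.867 and 0.947 (log2 fold change -0.14, SE 0.03, edgeR adjusted p = 0.0173, exact permutation p = 0.1). Replicates of Jun were close, with coefficients of variation of 1.33% and 1.48% where the median of genes with a mean count of at least 1000 was 4.04% and 3.91%. Leaving out WT replicate 1, WT replicate 3, KO replicate 1 or KO replicate 2 ended the Jun call (edgeR adjusted p between 0.0554 and 0.0648), with log2 fold changes of -0.16 to -0.13 over the 6 fits that leave out 1 library.

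Junos, a noncoding gene on the strand opposite Jun, shares 232 exonic bases with it, 7.28% of the Jun exons. No strand setting is given in the sources used here, so reads in that stretch cannot be told apart. Junos went the other way, from 0.3, 0.315 and 0.425 FPKM in WT to 0.616, 0.569 and 0.588 in those labelled KO, which is 0.73 ± 0.18 (SE) on the log2 scale (edgeR adjusted p = 0.0445). It was picked for its position beside Jun after its values were seen, and its call was lost in every fit with 1 library left out except that without WT replicate 3 (edgeR adjusted p from 0.104 to 0.134).

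The other Jun genes were not called. Junb, whose protein can restrain Jun at some targets, measured 61.1, 60.1 and 64.7 FPKM in the WT libraries, against 64.6, 67.2 and 67.6 in those labelled KO, and the groups overlapped at WT replicate 3. Its ratio was 1.06 with 95% limits of 0.993 and 1.13 (edgeR adjusted p = 0.238). Jund, the Jun gene that is least dependent on stimulation, measured 30.2, 26.2 and 31 FPKM in the WT libraries, against 31.3, 33.4 and 31.6 in those labelled KO, with WT replicate 2 lowest. Its ratio was 1.09 with 95% limits of 0.971 and 1.23 (edgeR adjusted p = 0.322). The noncoding gene Gm11175 lies within Jund on the opposite strand and shares 52.6% of the Jund exons, with means of 0.201 FPKM (WT) and 0.303 (labelled KO).

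**Figure D2:**
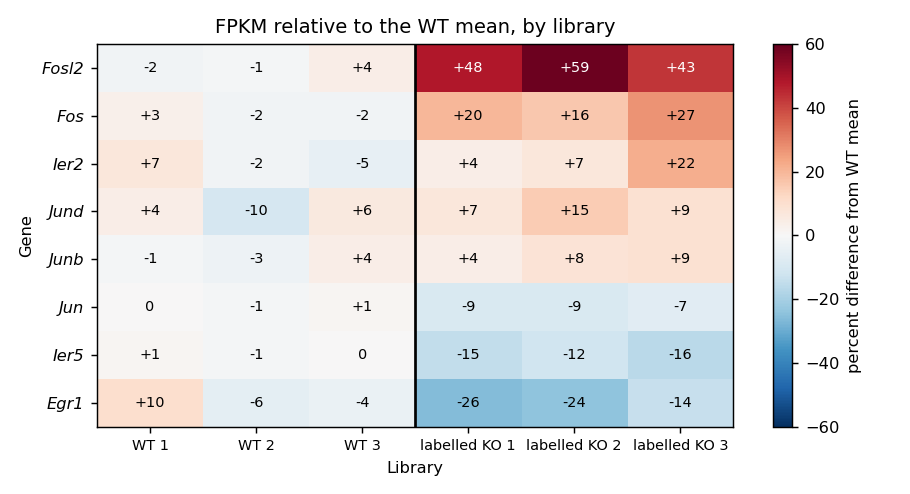
Percent difference of FPKM from the WT mean (colour and number) for the 8 genes with a WT mean above 1 FPKM, by library. In all 3 libraries labelled KO, Fosl2 and Fos (+16 to +59) and the uncalled Ier2, Jund and Junb (+4 to +22) are above the WT mean, and Jun, Ier5 and the uncalled Egr1 (-26 to -7) are below it.

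Egr1, a zinc finger factor induced through serum response factor, missed the threshold. It lies on chromosome 18 from 34859823 to 34864984 and measured 1.87, 1.61 and 1.64 FPKM in the WT libraries, against 1.27, 1.3 and 1.48 in those labelled KO. Estimated counts lay between 448 and 636. The groups did not overlap. The ratio was 0.78 with 95% limits of 0.656 and 0.927 (log2 fold change -0.36, SE 0.10, unadjusted p = 0.0118, edgeR adjusted p = 0.0763, exact permutation p = 0.1). DESeq2, which called 20.3% of its tested genes, called Egr1 lower (adjusted p = 0.0352), and it was the only alternative of 14 that did. Egr2, a relative with a role in macrophage differentiation, measured 0.197, 0.338 and 0.239 FPKM in the WT libraries, against 0.407, 0.456 and 0.237 in those labelled KO. KO replicate 3 lay within the WT range, and the ratio of 1.4 had 95% limits of 0.805 and 2.43 (edgeR adjusted p = 0.424).

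The Ier genes parted ways. Ier5, a stress-induced regulator that works with heat shock factor 1, spans 155096361 to 155099636 of chromosome 1 (minus strand). It measured 19.9, 19.6 and 19.8 FPKM in the WT libraries, against 16.9, 17.5 and 16.5 in those labelled KO. The libraries labelled KO were all below the WT libraries and 12% to 16% below the WT mean. The ratio was 0.848 with 95% limits of 0.799 and 0.901 (log2 fold change -0.24, SE 0.04, edgeR adjusted p = 0.00831, exact permutation p = 0.1), and the call held in each of 14 alternative fits. Ier2, a growth-factor-inducible gene whose protein acts in the nucleus, measured 13.1, 12.1 and 11.6 FPKM in the WT libraries, against 12.8, 13.2 and 15 in those labelled KO. Its groups overlapped, with KO replicate 3 highest, and its ratio of 1.1 had 95% limits of 0.955 and 1.27 (edgeR adjusted p = 0.369).

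**Figure D3:**
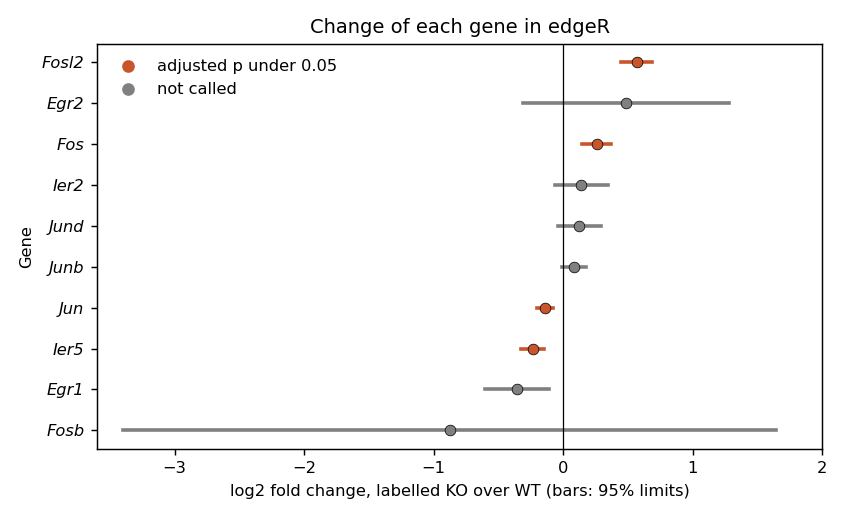
Fold change per gene in edgeR (log2, labelled KO over WT), with 95% limits as bars and the 4 called genes in orange. The limits of Fosl2, Fos, Jun, Ier5 and Egr1 exclude 0, while those of Egr2 and Fosb are wide.

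Of the 10 genes, 6 had groups that did not overlap in FPKM (Fos, Fosl2, Jun, Jund, Egr1 and Ier5), where 33.8% of all tested genes did not overlap. Within the libraries labelled KO, replicate 3 was highest for Fos, Jun, Junb, Egr1 and Ier2, and replicate 2 for the other 5 genes. In bulk RNA, a smaller share of cells with a transcript and less transcript per cell cannot be told apart.

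Ratios of FPKM within a library do not depend on how libraries are scaled to each other. They were chosen with the single changes known and are given as a description. Fos over Jun was 0.418, 0.402 and 0.393 in WT and 0.536, 0.515 and 0.55 in labelled KO, 1.32 times higher. Fosl2 over Jun was 0.107, 0.11 and 0.112 in WT and 0.18, 0.191 and 0.169 in labelled KO, 1.64 times higher. In both ratios the groups were apart in every library. Summed over the families, Fos transcripts (Fos, Fosb and Fosl2) went from 24.9 ± 0.49 to 31.6 ± 0.667 FPKM (SD, n = 3), while Jun transcripts (Jun, Junb and Jund) were at 139 ± 5.34 and 143 ± 2.82 FPKM. The ratio of the Fos sum to the Jun sum was 0.179 ± 0.00645 in WT and 0.221 ± 0.00505 in labelled KO. Within the families, Fosl2 made up 21.3% ± 0.916 of Fos transcripts in WT and 25.2% ± 1.8 in labelled KO, and Jun made up 34.6% ± 0.872 and 31% ± 0.459 of Jun transcripts. Protein was not measured, so these values describe messages and not dimers.

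**Figure D4:**
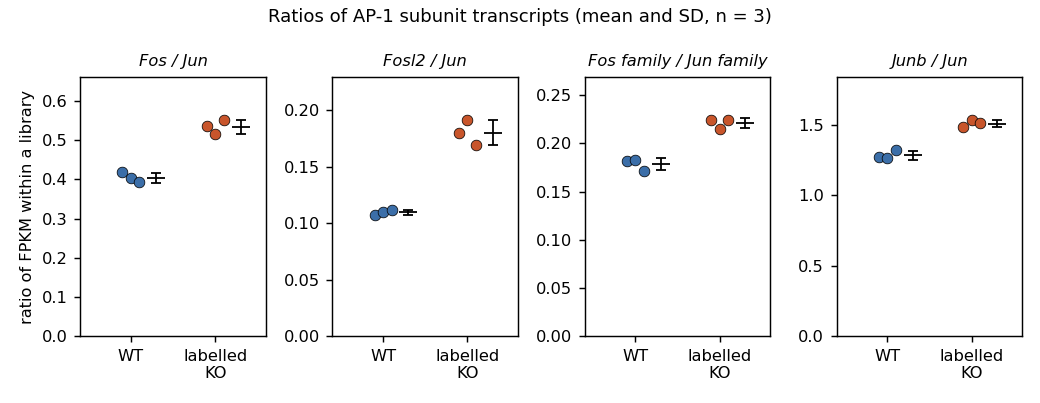
Ratios of FPKM within each library (points) with mean and SD (n = 3) for WT and labelled KO, each axis starting at 0. All 4 ratios are higher in each library labelled KO than in each WT library, for example Fos over Jun at 0.515 to 0.55 against 0.393 to 0.418.

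Other bZIP proteins that pair with Jun or compete for AP-1 sites changed in part. Of 12 tested, 2 rose and 1 fell, with a median log2 fold change of -0.03, beside 12.7% called over all tested genes. Batf, which forms dimers with Jun proteins, moved from 17.6 ± 0.518 to 21 ± 0.602 FPKM (SD, n = 3), a log2 change of 0.24 (edgeR adjusted p = 0.0242), and Atf7, a CRE-binding relative, from 8.26 ± 0.46 to 9.91 ± 0.119 FPKM (0.25, edgeR adjusted p = 0.0177). Jdp2, a Jun dimerization protein that represses AP-1 sites, fell from 13.2 ± 0.601 to 10 ± 0.769 FPKM (-0.42, edgeR adjusted p = 0.014). These calls were fragile. Jdp2 lost its call without WT replicate 3 or KO replicate 1 (edgeR adjusted p of 0.0519 and 0.0555), Atf7 without WT replicate 1 or any 1 KO library (0.0571 to 0.0648) and Batf without any 1 library but WT replicate 1 (0.0623 to 0.081). With 1 library left out, 0 to 2 genes of this list were called.

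Among 27 other tested immediate early genes, 5 rose and 2 fell (median 0.04). Over all tested genes 12.7% were called, and 22.2% of those with a mean count of at least 1000. With any 1 library left out, 5 or 6 of this list were called, beside 7.41% to 7.97% over all tested genes. Btg1, an antiproliferative gene, rose from 39.5 ± 0.852 to 59.4 ± 1.47 FPKM (SD, n = 3), a log2 change of 0.57 (edgeR adjusted p = 0.000116). Zfp36l1, which encodes a protein that binds AU-rich elements and speeds decay, rose from 92.3 ± 0.779 to 108 ± 0.68 FPKM (0.21, edgeR adjusted p = 0.00123). Plk2, a serum-inducible kinase gene, fell from 9.91 ± 0.153 to 6.9 ± 0.377 FPKM (-0.54, edgeR adjusted p = 0.00144). These 3 calls held in each of 14 alternative fits.

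MAP kinases carry signals from receptors to the factors that switch these genes on. Of 21 genes of the cascade, 3 rose and 1 fell (median 0.04), beside 12.7% called over all tested genes. Mapk3, which encodes ERK1, fell from 66.7 ± 2.41 to 57.8 ± 2.01 FPKM (SD, n = 3), a log2 change of -0.22 (edgeR adjusted p = 0.0171). Mapk14, which encodes p38 alpha, rose from 16.8 ± 0.914 to 20.4 ± 1.13 FPKM (0.26, edgeR adjusted p = 0.0335), and Mapkapk2, the kinase below p38, from 119 ± 2.92 to 129 ± 1.22 FPKM (0.11, edgeR adjusted p = 0.0294). Each of these 3 calls was lost without WT replicate 3 or KO replicate 2 and in further fits with 1 library left out, namely Mapk3 without WT replicate 2 or KO replicate 1 (edgeR adjusted p between 0.0527 and 0.063), Mapk14 without WT replicate 1 or KO replicate 3 (0.0941 to 0.101) and Mapkapk2 when WT replicate 2, KO replicate 1 or KO replicate 3 was absent (0.0676 to 0.102). The list then held 0 to 2 calls. Of 12 SRF, ternary complex and CREB factors, which read the signal at the promoters, 1 rose and 0 fell (median 0.03). It was Crtc3, a CREB coactivator gene, from 4.74 ± 0.108 to 5.57 ± 0.149 FPKM (0.22, edgeR adjusted p = 0.0167), whose call ended on leaving out WT replicate 1, WT replicate 3, KO replicate 1 or KO replicate 2 (0.0587 to 0.0669).

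MAP kinase phosphatases switch these kinases off again. Of 10 such genes, 2 rose and 0 fell, beside 12.7% called over all tested genes, and the median of the list was -0.06. Dusp3, which is named here after its values were seen, just missed the threshold (20.6 FPKM in WT, 18.6 in labelled KO, log2 fold change -0.16, edgeR adjusted p = 0.0507), and 4 of 14 alternative fits called 1 phosphatase gene lower. Dusp6, which removes phosphate from ERK, rose from 4.17, 4.66 and 4.32 FPKM to 6.48, 5.84 and 6.9 FPKM (log2 fold change 0.53, edgeR adjusted p = 0.0103). Dusp7, a close relative, rose from 12.1 ± 0.545 to 15.9 ± 0.339 FPKM (SD, n = 3; 0.38, edgeR adjusted p = 0.00378). Of 9 EGR corepressors and AP-1 protein turnover genes, 1 rose and 0 fell (median 0.04). That gene, Nab1, encodes a corepressor of EGR proteins and went from 24 ± 0.215 to 28.3 ± 0.374 FPKM (0.22, edgeR adjusted p = 0.00435). The calls of Dusp6, Dusp7 and Nab1 held with any 1 library left out. That of Dusp6 was lost with the replicate block (edgeR adjusted p = 0.0591), while those of Dusp7 and Nab1 held in each of 14 alternative fits.

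Genes known as targets of AP-1 or EGR factors went both ways. Of 23 tested, 3 rose and 5 fell (median -0.01). Over all tested genes 12.7% were called, and 22.2% of those with a mean count of at least 1000. Il1b, the interleukin 1 beta gene, rose by 0.83 and Mmp14, a membrane metalloproteinase gene, by 0.35, while Spp1, the osteopontin gene, fell by 0.44 (edgeR adjusted p = 0.000636, 0.00026 and 0.000271). In FPKM, Il1b went from 13.4 ± 0.925 to 24.1 ± 0.956, Mmp14 from 119 ± 3.11 to 153 ± 0.967 and Spp1 from 304 ± 3.97 to 226 ± 6.94 (SD, n = 3). All 3 have other regulators besides AP-1.

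**Figure D5:**
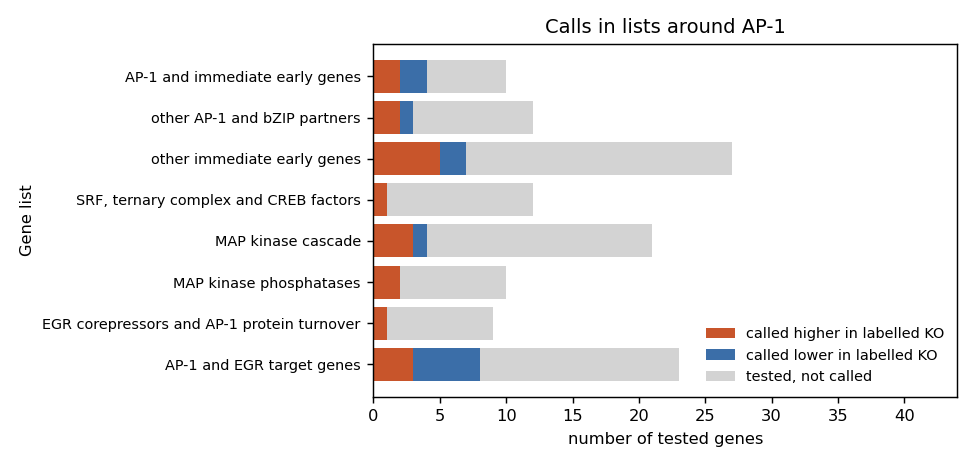
Number of tested genes called higher, called lower and not called in the libraries labelled KO, for the 10 genes described and for the 7 lists around them. Most genes of each list are not called, and the target list holds 3 genes called higher and 5 called lower. Over all tested genes 12.7% were called.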

How the data were processed

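RNA sequencing covered 3 WT libraries and 3 labelled KO. The submitters' processing notes name HISAT2 2.0.4, StringTie 1.3.4d, cutadapt 1.9 and mm10. Settings, annotation release and strand are not stated in the sources used here. Per the file headers, the authors deposited FPKM and counts per gene and library. The deposited counts are whole numbers but behave as estimated counts.

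The main test of the rounded counts was that of edgeR 4.0.16 under R 4.3.3 (quasi-likelihood, TMM, filterByExpr with a minimum count of 10 and a minimum total of 15, glmQLFit, glmQLFTest), with Benjamini-Hochberg adjustment over all tested genes. The script was tested on simulated data. Standard errors were derived from F statistics, and 95% limits used the total degrees of freedom of the test. Alternatives were DESeq2 1.42.0, median-of-ratios factors, no filter, an FPKM filter, a replicate block, each library left out, and limma 3.58.1 on log2(FPKM + 0.1), with pseudocounts of 1 and 0.01.

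The members and lists were chosen with earlier results of these data known. Besides the members and Mettl3, the rule names up to 3 called genes of each list by adjusted p. Where none was called, it names the 2 with the highest FPKM. It adds the 6 genes most like the mean standardized level of the members. Sequences are from RefSeq (GRCm38.p6) and GENCODE M21, both of the files' build. A cell marker of the plan is not reported here. Mean FPKM values are followed by the SD of 3 libraries.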

Additional observations from a re-analysis of the deposited data

How the results depend on the processing

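Directions of the 10 genes held in every alternative that gave a value. Of the 4 calls among them, those of Fosl2 and Ier5 held in all 14 alternatives, and those of Fos and Jun were lost in 5 each. With any 1 library left out, 2 to 3 of the 10 genes and 1244 to 1339 genes of the whole table were called, against 4 and 2060. With the replicate number as a block, 2 of the 10 genes (Fosl2 and Ier5) and 1012 genes of the whole table were called, and Fos and Jun each had an edgeR adjusted p of 0.0625. Same-numbered libraries hardly deviated together (correlations of 0.052, -0.033 and -0.02 over 8939 genes). WT replicate 1 and KO replicate 1 correlated best with each other, and the libraries of replicates 2 and 3 did not. Correlations this small cannot decide whether the libraries were prepared in pairs. With 1 library left out, the log2 change of Mettl3 ranged from -0.066 to 0.112, below 0 when WT replicate 3 (-0.066) or KO replicate 3 (-0.055) was absent. The median log2 change of all tested genes lay between -0.02 and 0.014 in every fit. The intervals of Fosb, Egr2, Junb, Jund and Ier2 span both directions. Fosb and Egr2 had the fewest counts, and the part of depth in their wide intervals was not tested.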

Other observations

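Genes were also compared with the mean standardized level of the 10 genes. This mean mixes rising and falling members, which offset each other, so it need not follow any 1 of them. It ranged from -0.37 (WT replicate 2) to 0.32 (KO replicate 2). Among 3701 genes with a mean of at least 10 FPKM, the highest Pearson correlations with it over the 6 libraries were those of Aamp (0.97), Ccny (0.97), Dag1 (0.96), Ppp2ca (0.96), Epb41l4aos (0.95) and Chrac1 (0.94). Ppp2ca, the catalytic subunit gene of protein phosphatase 2A, had mean levels of 21.7 FPKM (WT) and 22.3 (labelled KO). None of these 6 genes was called, and whether the offsetting members of the mean favour this was not tested. Of the 3701 genes, 14 had a correlation above 0.9, and how many unrelated genes would reach this was not tested. The 6 libraries share their groups and depths, and the correlations are given as a description.

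Among markers of cells other than macrophages, Mpo (log2 fold change 1.46), Dcn (0.69) and Vwf (0.53) were called higher in the libraries labelled KO, and Ltf (-0.38), Acta2 (-0.42) and Pecam1 (-0.29) lower, all at low levels (the highest mean was 4.01 FPKM, for Pecam1 in WT). Over all tested genes 12.7% were called. With 1 library left out, the Ltf call was lost in every fit (edgeR adjusted p of 0.0679 to 0.113). Dcn and Pecam1 stayed called only without KO replicate 1, and Acta2 only without WT replicate 1 (edgeR adjusted p up to 0.139). Mpo lost its call without WT replicate 1, WT replicate 3, KO replicate 1 or KO replicate 2 (edgeR adjusted p of 0.0602 to 0.0802). With the replicate block Mpo was also not called (edgeR adjusted p = 0.0508). Vwf kept its call with any 1 library left out. Vwf was not called with the replicate block (edgeR adjusted p = 0.0581) or with pseudocounts of 0.1 and 0.01 (limma adjusted p = 0.051 and 0.0571). The T and B cell genes Trac (2.45 to 3.21 FPKM), Cd8a (1.34 to 1.65), Cd79a (0.0528 to 0.118) and Ms4a1 (0.0297 to 0.0135) were not called.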
